A study of Homo sapiens with 9 samples.

Results

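The mitochondrial ribosomal protein genes, those with MRPL or MRPS symbols, were read in Ramos, a B cell line from a human Burkitt's lymphoma, after 48 h with 1 of 3 additions. The additions were PBS, human HDL at 40 nM, or HDL NPs at 40 nM, which are synthetic HDL-like nanoparticles with a gold core, lipids and apolipoprotein A-I that bind the HDL receptor SCARB1 and carry little cholesterol. Every group was the same line at passage 10 to 15 with no genetic change named in the labels, and each had 3 arrays, which the study's methods call biological replicates, so all 9 arrays describe 1 cell line. Members were taken by symbol, MRPL or MRPS followed by a number, from the probes of an Illumina HT-12 array. Symbols of 2 pseudogenes and 2 antisense RNAs were left out, which gave 76 coding genes on 110 probes, among 10307 genes tested. Probes entered with a detection p (the rank against negative control probes) below 0.05 on 3 or more arrays, and the brightest such probe stood for its gene. The filter kept 105 of the 110 probes and all 76 genes, each of which was above background on all 9 arrays. By symbol, 28 belong to the small subunit and 48 to the large subunit, and medians and figure colours by subunit follow this split.

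The mitochondrial ribosome translates the few messages of the mitochondrial genome, which code for core subunits of the respiratory chain and of ATP synthase. Its RNAs are made inside the organelle, but all of its proteins are encoded in the nucleus, made in the cytosol and imported, so their genes are among the many nuclear genes that a cell must express together to keep its mitochondria working. Some of the proteins descend from those of the bacterial ribosome and carry its numbering, and others are found only in mitochondria.

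Promoters of nuclear genes for mitochondrial proteins are known for sites of NRF1, of the ETS family to which NRF2 (GABP) belongs, and of YY1, and E-boxes are the sites of MYC, whose gene is translocated in Burkitt's lymphoma. RefSeq promoters of GRCh38.p14, from 250 bases before to 50 bases after the start, were given for 68 of the 76 members and were searched on both strands for 4 exact words. They were ccggaag for ETS factors, cacgtg for the E-box, a word for YY1 that is the later run of capitals in the promoters of MRPS18A and MRPS10 printed here, and the palindrome of NRF1. Printed are the promoters of 4 of the 5 members past the study's rule in HDL NP against PBS, MRPL53, MRPL54, MRPS17 and MRPS25, since the results turn on them (that of the other member, MRPL23, was not among the 68), and those of MRPS18A and MRPS10, the lowest and the highest on 1 HDL NP array among the 4 members that hold both an ETS and a YY1 word. Each is written 5′ to 3′ on the strand of its gene, with the matched words in capitals.
MRPL54 (chr19:3762432-3762731, plus strand): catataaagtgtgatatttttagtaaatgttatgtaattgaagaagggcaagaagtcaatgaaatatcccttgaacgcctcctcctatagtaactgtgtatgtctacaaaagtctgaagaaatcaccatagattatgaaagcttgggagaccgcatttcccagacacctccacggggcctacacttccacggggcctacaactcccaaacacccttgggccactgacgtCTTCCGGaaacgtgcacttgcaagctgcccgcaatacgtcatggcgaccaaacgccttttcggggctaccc
MRPL53 (chr2:74472631-74472930, minus strand): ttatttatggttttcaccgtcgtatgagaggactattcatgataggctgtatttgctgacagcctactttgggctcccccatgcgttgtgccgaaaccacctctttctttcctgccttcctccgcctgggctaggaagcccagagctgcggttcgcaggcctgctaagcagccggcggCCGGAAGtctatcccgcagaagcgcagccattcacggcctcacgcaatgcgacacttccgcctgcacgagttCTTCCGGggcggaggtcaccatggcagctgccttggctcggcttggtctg
MRPS17 (chr7:55951627-55951926, plus strand): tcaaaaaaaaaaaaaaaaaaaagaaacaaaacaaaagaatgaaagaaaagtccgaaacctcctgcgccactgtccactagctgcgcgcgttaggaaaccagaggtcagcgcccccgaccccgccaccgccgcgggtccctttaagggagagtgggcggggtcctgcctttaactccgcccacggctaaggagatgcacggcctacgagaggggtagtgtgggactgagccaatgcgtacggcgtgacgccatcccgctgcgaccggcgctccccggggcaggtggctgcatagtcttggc
MRPS25 (chr3:15065266-15065565, minus strand): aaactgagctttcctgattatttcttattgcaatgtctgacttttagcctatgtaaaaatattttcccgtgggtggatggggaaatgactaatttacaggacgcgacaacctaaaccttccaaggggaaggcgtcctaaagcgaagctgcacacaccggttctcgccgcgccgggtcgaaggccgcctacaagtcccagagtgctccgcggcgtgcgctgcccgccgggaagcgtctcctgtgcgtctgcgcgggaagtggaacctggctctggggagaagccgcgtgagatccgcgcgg
MRPS18A (chr6:43687742-43688041, minus strand): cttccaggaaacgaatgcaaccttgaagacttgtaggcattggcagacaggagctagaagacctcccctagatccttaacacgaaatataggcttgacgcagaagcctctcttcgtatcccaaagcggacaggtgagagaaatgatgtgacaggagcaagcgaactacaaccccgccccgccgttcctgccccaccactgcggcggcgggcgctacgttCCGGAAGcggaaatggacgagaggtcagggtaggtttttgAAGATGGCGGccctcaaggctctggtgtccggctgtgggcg
MRPS10 (chr6:42217812-42218111, minus strand): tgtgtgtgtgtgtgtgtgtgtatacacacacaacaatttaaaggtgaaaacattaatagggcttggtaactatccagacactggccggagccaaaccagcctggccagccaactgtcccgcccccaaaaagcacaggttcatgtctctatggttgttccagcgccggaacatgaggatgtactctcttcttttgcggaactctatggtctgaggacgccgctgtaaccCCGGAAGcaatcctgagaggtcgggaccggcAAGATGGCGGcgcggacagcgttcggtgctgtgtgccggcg

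The ETS word was in 28 of the 68 member promoters (41.2%), against 14.2% of the promoters of 15843 coding genes. The YY1 word was in 13 (19.1%), against 1.93% of all, and 10 of its 13 matches lay at or after the start. In MRPS18A and MRPS10 it stood at base 260 of the printed window, after an ETS word at base 220 or 229, and in none of the 4 members with both words did they overlap. MRPL53 held the ETS word at bases 179 and 251 and MRPL54 at base 230, while MRPS17 and MRPS25 held none of the 4 words in this window. The NRF1 word was in 1 member, MRPL17 (1.47%, against 1.75%), and the E-box in 6 (8.82%, against 8.88%). At least 1 of the words was in 41 member promoters (60.3%, against 24% of all), and the median GC content was 60.3% for members and 62.7% for all. A coding gene started on the other strand within 500 bases for 12 members (17.6%, against 9.18% of all). MRPL46 and MRPS11 formed such a pair with each other, 320 bases apart, so 1 small-subunit and 1 large-subunit gene share that interval. These are matches of letters and not measured binding, and promoters share sequence features with many other genes.

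The 9 arrays had mean bead intensities of 228 to 278, with 33.9% to 38.1% of the probes above background. Of 8 B cell markers, 5 were measured (CD22, CD79A, CD79B, CD74 and MS4A1), each above background on all 9 arrays, against 2 of 8 T cell markers (LCK and CD2) and 3 of 8 myeloid markers (CD14, LYZ and FCER1G), each on 8 arrays or fewer. The array HDL NP 1 stood apart from the rest. On it 536 genes lay more than 1 from their PBS mean on the log2 scale, against 0 to 6 on each of the other 8 arrays, so results that rest on it are given with it and without it. Levels are log2 of background-corrected, quantile-normalized intensity, and since every probe has its own brightness they are compared between arrays and not between genes.

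After HDL NP exposure the mitochondrial ribosomal protein genes lay mostly below their PBS level, and by far the most on HDL NP 1. Relative to each gene's PBS mean, the members' median was 0.01, 0.03 and -0.02 on the 3 PBS arrays and 0.02, 0.03 and 0.03 on the human HDL arrays, against -0.53, -0.07 and -0.16 on HDL NP 1, 2 and 3. Over all genes tested, the HDL NP medians were 0.11, -0.01 and -0.00. On HDL NP 1, 64 of the 76 members lay below their PBS mean (38.9% of all genes did), 41 of them by more than 0.5 (10.7% of all genes did) and 22 by more than 1 (4.23% of all genes did). On HDL NP 2, 57 members lay below the PBS mean (51.9% of all genes) and 0 did so by more than 0.5 (1.24% of all genes), and on HDL NP 3, 61 lay below (50.6% of all genes) and 1 did so by more than 0.5, MRPL54 (1.29% of all genes). Most members thus lay below on each HDL NP array, all 3 of which are set against the same PBS mean, and the size was far larger on HDL NP 1 than on the other two. In bulk RNA, fewer cells of a kind and less RNA per cell cannot be told apart.

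**Figure D1:**
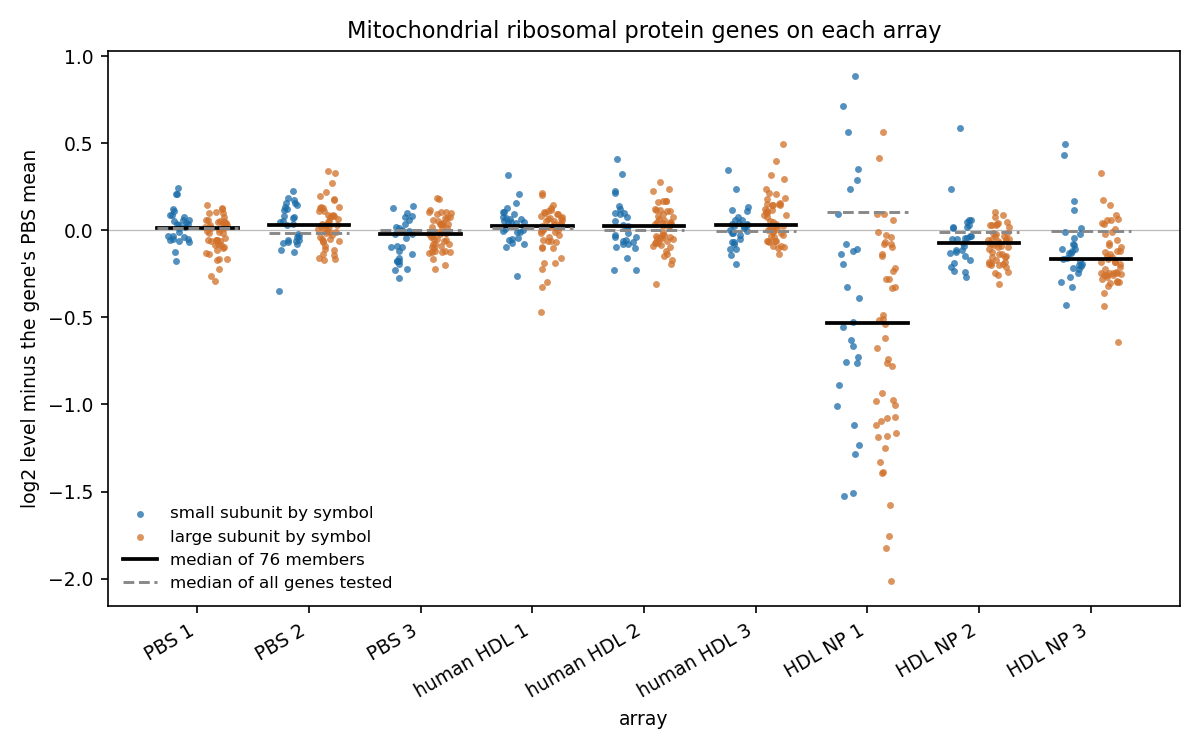
Log2 level of each of the 76 members minus its PBS mean (vertical axis) on each of the 9 arrays (horizontal axis), with small-subunit genes in blue and large-subunit genes in orange. Solid bars are the median of the members and dashed bars the median of all 10307 genes, and the members' median is -0.53 on HDL NP 1, -0.07 on HDL NP 2 and -0.16 on HDL NP 3, against -0.02 to 0.03 on the other 6 arrays.

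No single member passed the adjusted threshold in HDL NP against PBS. In the limma fit across all genes, 0 of the 76 members had a Benjamini-Hochberg adjusted p under 0.05 in either direction, against 38 genes called higher (0.369%) and 4 called lower (0.0388%) of 10307. At an unadjusted limma p under 0.05, 20 members were lower (26.3%, against 6.35% of all genes) and 2 were higher (2.63%, against 9.07%). For 24 members all 3 HDL NP arrays lay below all 3 PBS arrays (31.6%, against 8.5% of all genes), and for 2 they lay above (2.63%, against 11.7%). The fitted difference was negative for 67 members (88.2%, against 44% of all genes), and its median was -0.27 over the members, -0.24 for the small and -0.31 for the large subunit, against 0.03 over all genes. An exact permutation test of 3 arrays against 3 cannot give a p below 0.1, so for single genes the limma fit is given. By the rule that the study's methods state, a fold over 1.5 with an unadjusted p under 0.05, 4 members were lower (5.26%, against 1.1% of all genes) and 1 was higher (1.32%, against 1.43%). The count of 4 turned on single arrays, with 0 without HDL NP 1, 22 without HDL NP 2 and 15 without HDL NP 3. All p-values are two-sided and measure the spread between arrays of 1 cell line.

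Among the members that were lower by the study's rule, MRPL54 codes for a large-subunit protein with no bacterial counterpart. Its log2 levels were 9.60, 9.35 and 9.53 on the PBS arrays, 9.60, 9.41 and 9.40 on human HDL, and 7.67, 9.25 and 8.85 on HDL NP. The HDL NP arrays were the lowest 3 of the 9, with HDL NP 1 far below the other two. The difference from PBS was -0.90 (SE 0.30, limma adjusted p = 0.209), a 1.87-fold lower level, and -0.44 without HDL NP 1 (adjusted p = 0.199).

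MRPL53, also a mitochondrion-specific protein of the large subunit, had levels of 8.88, 8.72 and 8.75 on PBS, 8.81, 8.85 and 8.88 on human HDL, and 7.03, 8.75 and 8.47 on HDL NP. HDL NP 2 lay among the PBS arrays, so the groups overlapped. The difference was -0.70 (SE 0.32, limma adjusted p = 0.324) and -0.18 without HDL NP 1. MRPL23, which belongs to the proteins around the exit of the peptide tunnel, had levels of 10.53, 10.52 and 10.52 on PBS, 10.48, 10.37 and 10.39 on human HDL, and 8.94, 10.37 and 10.26 on HDL NP. All 3 HDL NP arrays were below PBS, but HDL NP 2 lay level with human HDL 2. Its difference from PBS was -0.67 (SE 0.28, limma adjusted p = 0.298) and -0.21 without HDL NP 1.

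MRPS17, a small-subunit protein with a bacterial counterpart, had levels of 10.40, 10.30 and 10.38 on PBS, 10.41, 10.39 and 10.39 on human HDL, and 8.84, 10.23 and 10.17 on HDL NP. The HDL NP arrays were again the lowest 3, and HDL NP 2 and 3 lay close beneath PBS 2. The difference was -0.62 (SE 0.28, limma adjusted p = 0.319) and -0.16 without HDL NP 1. MRPL41, next to MRPL54 in the order of differences, had -0.77 (SE 0.37, limma adjusted p = 0.344), with levels of 9.58, 9.37 and 9.65 on PBS against 7.52, 9.48 and 9.28 on HDL NP. The groups overlapped, and without HDL NP 1 the difference was -0.16. MRPL36, a small protein whose bacterial counterpart is the last of the numbered large-subunit proteins, had 10.84, 10.76 and 10.86 on PBS and 9.43, 10.73 and 10.57 on HDL NP, a difference of -0.57 (SE 0.26, limma adjusted p = 0.316) and of -0.17 without HDL NP 1.

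A few members lay below PBS more evenly over the HDL NP arrays. MRPL32, whose maturation by a mitochondrial inner-membrane protease is known from yeast and mouse, had levels of 9.83, 9.80 and 9.69 on PBS, 9.62, 9.76 and 9.81 on human HDL, and 9.10, 9.47 and 9.34 on HDL NP. All HDL NP arrays were below all 6 others, and the difference from PBS was -0.47 (SE 0.13, limma adjusted p = 0.128). Without HDL NP 1 it was -0.37 (adjusted p = 0.172). MRPL24, another protein near the tunnel exit, had 9.92, 9.86 and 9.82 on PBS and 9.25, 9.67 and 9.50 on HDL NP, with a difference of -0.39 (SE 0.13, limma adjusted p = 0.209) and of -0.28 without HDL NP 1. The other kept probe of MRPL24 gave -0.41.

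Both stalk proteins were measured. The stalk recruits the translation factors that use GTP, and MRPL12 is its flexible part while MRPL10 anchors it. MRPL12 had levels of 9.86, 10.05 and 9.83 on PBS, 9.93, 9.88 and 9.86 on human HDL, and 9.40, 9.70 and 9.61 on HDL NP. Every HDL NP array was below the other 6, and the difference from PBS was -0.34 (SE 0.12, limma adjusted p = 0.235) and -0.26 without HDL NP 1. MRPL10 had 7.23, 7.50 and 7.44 on PBS and 7.16, 7.32 and 7.54 on HDL NP, so its groups overlapped, with a difference of -0.05 (SE 0.17, limma adjusted p = 0.895). MRPL11, which sits beside the stalk, had 10.08, 10.25 and 10.25 on PBS and 9.21, 10.09 and 9.95 on HDL NP, with a difference of -0.44 (SE 0.19, limma adjusted p = 0.301) and of -0.18 without HDL NP 1.

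In the small subunit, MRPS12 lies at the decoding centre. Its levels were 11.51, 11.48 and 11.69 on PBS, 11.69, 11.52 and 11.59 on human HDL, and 10.55, 11.45 and 11.34 on HDL NP. The HDL NP arrays were the lowest 3, by a narrow margin for HDL NP 2, and the difference was -0.45 (SE 0.20, limma adjusted p = 0.312) and -0.16 without HDL NP 1. MRPS11, which faces the messenger RNA near the exit site, had 10.20, 10.14 and 10.17 on PBS and 9.44, 10.12 and 10.04 on HDL NP, a difference of -0.30 (SE 0.16, limma adjusted p = 0.382). Its divergent neighbour MRPL46 lay at -0.28, -0.08 and 0.01 from its PBS mean on the 3 HDL NP arrays, against -0.73, -0.05 and -0.13 for MRPS11. MRPS34, MRPS22 and MRPS16 are small-subunit genes in which inherited defects of mitochondrial translation are known. MRPS34 had 8.91, 8.70 and 8.40 on PBS and 7.92, 8.55 and 8.25 on HDL NP (difference -0.43, SE 0.17, limma adjusted p = 0.278), with overlapping groups. MRPS22 and MRPS16 differed from PBS by -0.06 (SE 0.11) and -0.00 (SE 0.13), with HDL NP arrays at -0.12, -0.05 and -0.02 and at -0.08, 0.06 and 0.02 from the PBS mean.

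The 3 MRPS18 paralogs went apart on HDL NP 1. The human ribosome holds MRPS18B and MRPS18C in its small subunit and MRPS18A, despite its symbol, in its large subunit. Medians by subunit count MRPS18A by its symbol, with the small subunit. MRPS18A lay at -1.23, 0.02 and -0.04 from its PBS mean on HDL NP 1, 2 and 3, and MRPS18C at -1.51, 0.06 and -0.11. MRPS18B lay at -0.19, -0.03 and -0.32. On HDL NP 1 alone MRPS18A and MRPS18C were thus more than 1 below PBS and MRPS18B was not, and on HDL NP 2 and 3 the lowest of the 3 was MRPS18B. Against PBS the limma adjusted p was 0.448 for MRPS18A, 0.521 for MRPS18B and 0.426 for MRPS18C.

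MRPS25 stood against the direction of the other members. It codes for a mitochondrion-specific protein of the small subunit. Its levels were 6.66, 6.38 and 6.31 on PBS, 6.49, 6.55 and 6.57 on human HDL, and 7.16, 7.04 and 6.94 on HDL NP. Every HDL NP array was above all 6 others, by a similar amount on each, 0.71, 0.59 and 0.49 above the PBS mean. The difference from PBS was 0.60 (SE 0.13, limma adjusted p = 0.0714), a 1.51-fold higher level and the smallest p of all 76 members. Without HDL NP 1 it was 0.54 (adjusted p = 0.0905). MRPS25 had 1 kept probe. Its difference was 0.35 without background correction and 0.45 with an offset of 50, both under the study's fold, and up to 1.09 among the other alternatives given below.

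MRPS27, a pentatricopeptide-repeat protein that binds RNA, had levels of 9.42, 8.87 and 9.35 on PBS, 9.53, 9.62 and 9.45 on human HDL, and 10.10, 9.45 and 9.64 on HDL NP. The HDL NP arrays were above PBS but not above human HDL, and PBS 2 was the lowest array. The difference from PBS was 0.52 (SE 0.18, limma adjusted p = 0.233) with its brightest probe and 0.19 with its other probe. MRPS35, MRPL39, MRPS31 and MRPL19 complete the 6 highest, with differences of 0.20, 0.19, 0.16 and 0.14 and overlapping groups in each. For MRPS35 and MRPL39 the value came from HDL NP 1, where they lay at 0.56 and 0.57, against -0.07 and -0.05 on HDL NP 2. MRPL3, in which mutations cause a cardiomyopathy, lay at 0.42 on HDL NP 1 and at -0.15 and -0.16 on HDL NP 2 and 3. MRPL44, an RNase III-like protein with a like disease link, lay at -0.10, -0.20 and -0.25. MRPL45, which lies by the tunnel exit and tethers the ribosome to the inner membrane, lay at 0.09, -0.18 and -0.12. By its other kept probe MRPL45 lay at -0.01, -0.44 and -0.40, a difference from PBS of -0.28, against -0.07 by the probe used. MRPL37 lay at 0.09, 0.02 and -0.05. MRPL57 and MRPS14, which with MRPS25 had the lowest mean levels of the members, lay at -0.04, -0.19 and -0.19 and at -0.14, -0.17 and -0.21.

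**Figure D2:**
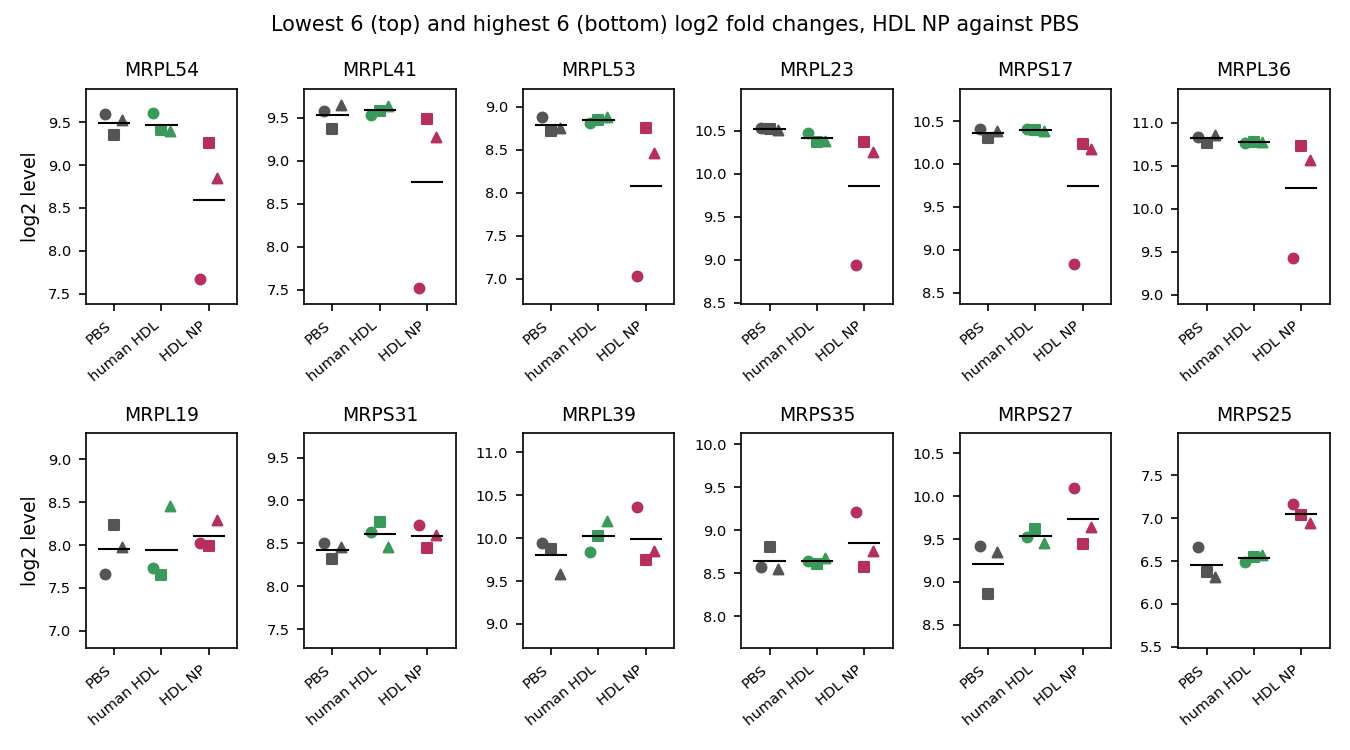
Log2 level (vertical axes, each spanning the same range) of the 6 members with the lowest and the 6 with the highest difference between HDL NP and PBS, by group, with circles, squares and triangles for replicates 1, 2 and 3 and a bar for the mean of 3 arrays. For the lowest 6 the circle of HDL NP lies apart from the other arrays, as in MRPL54 at 7.67, and for MRPS25 all 3 HDL NP arrays lie at 6.94 to 7.16, above the other 6.

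Without HDL NP 1, the difference from PBS was smaller, and most members still lay below it. With the 2 remaining HDL NP arrays, the fitted difference from PBS was negative for 63 of the 76 members, against 50.9% of all genes, with a median of -0.11 against -0.00 over all genes and a range of -0.44 to 0.54. With and without that array, 60 members were negative in both fits and 10 changed sign, of which 7 went from negative to positive (MRPL10, MRPL13, MRPL33, MRPL35, MRPL51, MRPS16 and MRPS28) and 3 from positive to negative (MRPL3, MRPL37 and MRPL39). The widest such change was that of MRPL33, from -0.42 to 0.07. Of the members, 0 passed the adjusted threshold in limma and 0 the study's rule. At an unadjusted limma p under 0.05, 6 of the 76 were lower, a share near the 6.24% of all genes. They were MRPL12, MRPL16, MRPL24, MRPL32, MRPL44 and MRPL54. Only 1 member was higher, MRPS25, against 7.74% of all genes. MRPL16, a large-subunit protein with a bacterial counterpart, lay at -0.33, -0.20 and -0.22 from its PBS mean on HDL NP 1, 2 and 3.

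**Figure D3:**
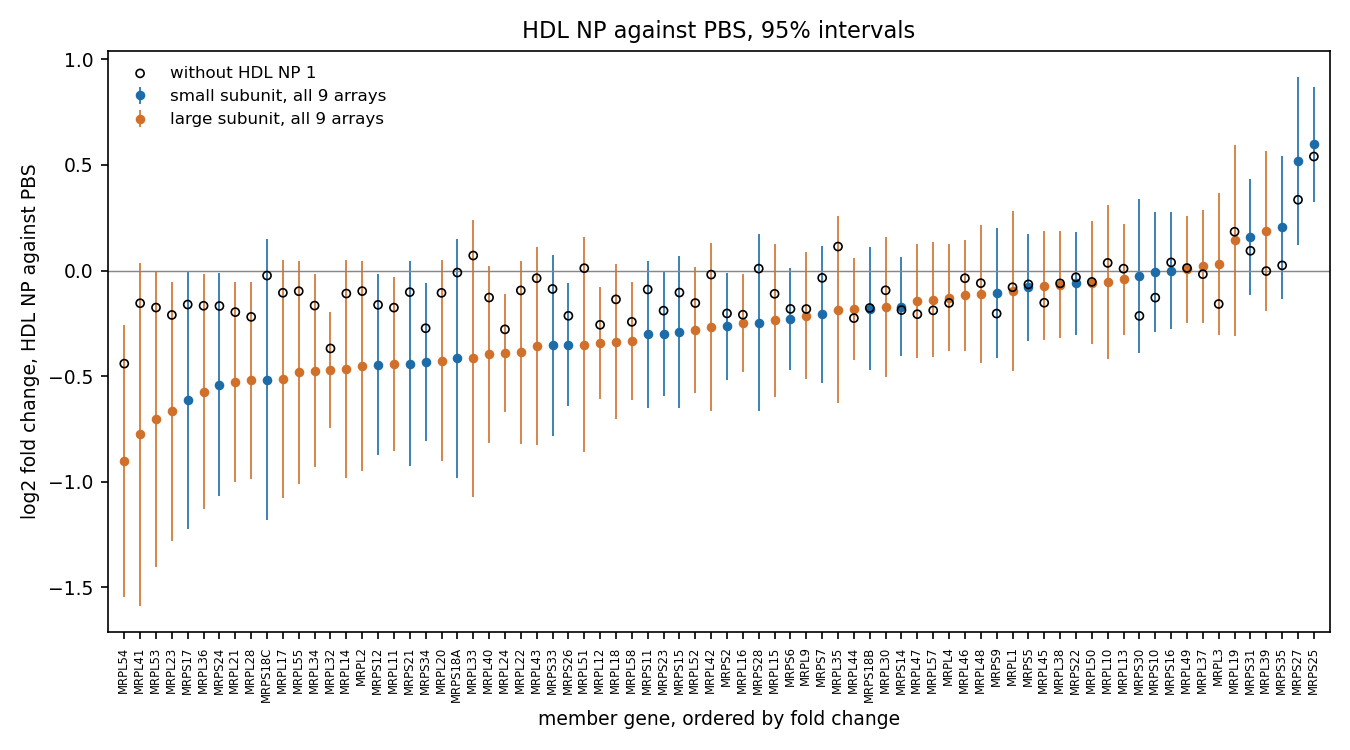
Log2 fold change of HDL NP against PBS (vertical axis) for the 76 members in order (horizontal axis), with 95% intervals from limma on all 9 arrays for small-subunit (blue) and large-subunit (orange) genes, and open circles for the value without HDL NP 1. The filled values run from -0.90 for MRPL54 to 0.60 for MRPS25, and the open circles of most lower members lie nearer to 0.

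Medians by kind of member are given as a description, since they lie apart mainly on HDL NP 1 and were not tested. The 43 members numbered like a bacterial protein, with numbers up to 21 in the small and 36 in the large subunit, had a median of -0.66 on that array (quartiles -1.12 and -0.21), and the 33 with higher numbers had -0.28 (quartiles -0.89 and -0.01), so the quartile ranges overlapped widely. The medians of these groups were -0.10 and -0.05 on HDL NP 2 and -0.17 and -0.12 on HDL NP 3. The 28 members with an ETS word in the promoter had a median of -0.69 on HDL NP 1 (quartiles -1.09 and -0.19) and the 40 without it -0.30 (quartiles -0.82 and -0.03). The medians with and without it were -0.05 and -0.08 on HDL NP 2, the other way round, and -0.21 and -0.16 on HDL NP 3. With and without the YY1 word the medians on HDL NP 1 were -0.54 and -0.51.

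Probes of the same gene could be compared for 24 members, which had 29 other kept probes besides the ones used. Of these, 21 had a lower mean on HDL NP than on PBS, and 23 had the sign of the probe used. Their median difference was -0.20, against -0.35 for the probes used in their place. Among the 25 other probes detected on all 9 arrays the widest gap to the probe used was 0.49, for a dim probe of MRPL11. That probe, with a mean PBS level of 4.90, gave 0.04, against -0.44 by the probe used. The remaining MRPL11 probe gave -0.40 at a mean PBS level of 10.16, near the 10.19 of the probe used. The MRPL55 probes detected on all 9 arrays gave -0.48 and -0.51, and its remaining probe, above background on 3 arrays, gave 0.07. On HDL NP 1 the probes of a gene could oppose each other. MRPL42 lay at -0.76 by the probe used and 0.44 by the other, and MRPL35, which had 3 probes, at -0.78, 0.16 and 0.61. MRPL20, by contrast, lay at -1.07 and -1.21, MRPL21 at -1.19 and -1.12, and MRPL33 at -1.39 and -1.63.

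Human HDL at the same molar dose and time left the members near their PBS level. The fitted differences ran from -0.15 to 0.32 with a median of 0.02. None of the 76 members passed the adjusted threshold in limma (0% of all genes did), the study's rule (0% of all genes higher, 0.0388% lower) or an unadjusted p under 0.05 (1.14% of all genes higher, 1.16% lower). The 95% interval lay within the study's 1.5-fold limit, 0.58 on the log2 scale, for 61 of the 76, with a median reach of 0.36 to either side. For the remaining members this fit does not exclude a difference of that size. These intervals and p-values take their spread from all 9 arrays, so HDL NP 1 widens them too. For MRPL23 the SD was 0.01 on PBS, 0.06 on human HDL and 0.79 on HDL NP, and the interval ran from -0.72 to 0.50. The groups did not overlap for 6 members with human HDL above PBS (4.92% of all genes), MRPL2, MRPL11, MRPL52, MRPL55, MRPS18C and MRPS27, and for 1 with human HDL below PBS (4.26% of all genes), MRPL23. The lowest 3 differences were those of MRPL1 (-0.15), MRPS18B (-0.13) and MRPS28 (-0.12), and the highest were those of MRPS27 (0.32), MRPL39 (0.22) and MRPL52 (0.20).

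HDL NP against human HDL compares both HDL types at the same dose and time, and its HDL NP arrays are those of the comparison with PBS. The fitted difference was negative for 66 of the 76 members (45% of all genes), with a median of -0.27 against 0.03 over all genes. None passed the adjusted threshold in limma, against 57 genes called higher (0.553%) and 4 called lower (0.0388%). At an unadjusted p under 0.05, 26 members were lower (6.81% of all genes) and 1, MRPS25, was higher (9.56%), and the groups did not overlap for 33 lower members (10.1% of all genes) and for 1 higher member (12.5%). By the study's rule 8 members were lower (1.35% of all genes) and 0 higher (1.63%). They were MRPL54 (-0.88), MRPL41 (-0.83), MRPL53 (-0.76), MRPS18C (-0.69), MRPS17 (-0.65), MRPS24 (-0.61), MRPL11 (-0.59) and MRPL28 (-0.59), with limma adjusted p of 0.182 to 0.298.

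Of these 8, MRPL28 had levels of 7.09, 7.29 and 6.99 on human HDL, 6.88, 7.04 and 7.23 on PBS and 5.93, 6.80 and 6.87 on HDL NP. MRPS24 had 10.71, 10.66 and 10.66 on human HDL, 10.71, 10.48 and 10.62 on PBS and 9.32, 10.56 and 10.31 on HDL NP. All HDL NP arrays were below human HDL in both, with HDL NP 1 lowest. MRPL52 did not reach the fold but had a smaller adjusted p than any of the 8, with 7.30, 7.48 and 7.42 on human HDL against 6.67, 7.15 and 6.95 on HDL NP (difference -0.48, SE 0.14, limma adjusted p = 0.141). MRPS25 had a difference of 0.51 from human HDL (SE 0.13, limma adjusted p = 0.0982). Without HDL NP 1 the median over the members was -0.14 (-0.01 over all genes), 65 of 76 were lower (51.7% of all genes), 0 passed the study's rule or the adjusted threshold, and 11 were lower (6.56% of all genes) and 1 higher (7.55%) at an unadjusted p under 0.05.

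Other genes of mitochondrial gene expression did not all lie with the members on HDL NP 1. No gene of the lists that follow passed the adjusted threshold in HDL NP against PBS. Of 5 mitoribosomal proteins under other symbols, 4 were measured, with a median of -0.47, -0.18 and -0.08 on HDL NP 1, 2 and 3. Among them, GADD45GIP1 of the large subunit lay at -1.09, -0.36 and -0.47 (limma adjusted p = 0.223), CHCHD1 of the small subunit at -1.21, 0.05 and 0.06, and DAP3, a GTP-binding protein of the small subunit, at 0.76, -0.07 and -0.11. The 23 measured assembly factors of the mitoribosome had medians of 0.07, -0.04 and -0.10, the 16 mitochondrial translation factors 0.08, -0.10 and -0.07, and the 20 genes of mitochondrial transcription and RNA processing 0.23, -0.07 and -0.01.

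From each list the 2 genes with the largest absolute differences are named, whatever their direction. The initiation factor MTIF3 lay at -0.61, -0.57 and -0.47 (difference from PBS -0.55, SE 0.11, limma adjusted p = 0.056), and YBEY, an RNA-processing enzyme needed for the small subunit, at -1.09, -0.51 and -0.60 (difference -0.73, SE 0.16, limma adjusted p = 0.071). PNPT1, a mitochondrial RNA-degrading enzyme, lay at 0.54, 0.55 and 0.80 (difference 0.63, SE 0.13, limma adjusted p = 0.071). HSD17B10, a subunit of mitochondrial RNase P, lay at -0.83, -0.10 and -0.42, MALSU1, which assists assembly of the large subunit, at -0.70, -0.17 and -0.17, and MTRF1, of the release factor family, at 0.72, 0.60 and 0.07.

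Outside mitochondrial gene expression, the nuclear subunits of respiratory complex I and the cytosolic ribosomal proteins also lay low on HDL NP 1. The 34 measured complex I genes had medians of -1.08, -0.04 and -0.13 on HDL NP 1, 2 and 3, led by NDUFA13 at -2.38, -0.13 and -0.40 and NDUFB7 at -2.03, -0.11 and -0.29. The 69 cytosolic ribosomal protein genes had -0.46, -0.00 and -0.01, with RPL36 at -1.63, -0.14 and -0.21 and RPS21 at -1.84, -0.01 and -0.01. On HDL NP 2 and 3 the members' medians of -0.07 and -0.16 were lower than those of the cytosolic ribosomal proteins. Other mitochondrial lists lay nearer to the members there. Complex I had -0.04 and -0.13, the assembly factors -0.04 and -0.10, and the mitochondrial translation factors -0.10 and -0.07, lower than the members on HDL NP 2. The 9 housekeeping genes had medians of 0.35, 0.00 and -0.05, with PGK1 at 0.74 and ACTB at 0.64 on HDL NP 1, and the 3 myeloid markers had -0.47, 0.07 and -0.02. What made HDL NP 1 differ from the other arrays was not tested.

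**Figure D4:**
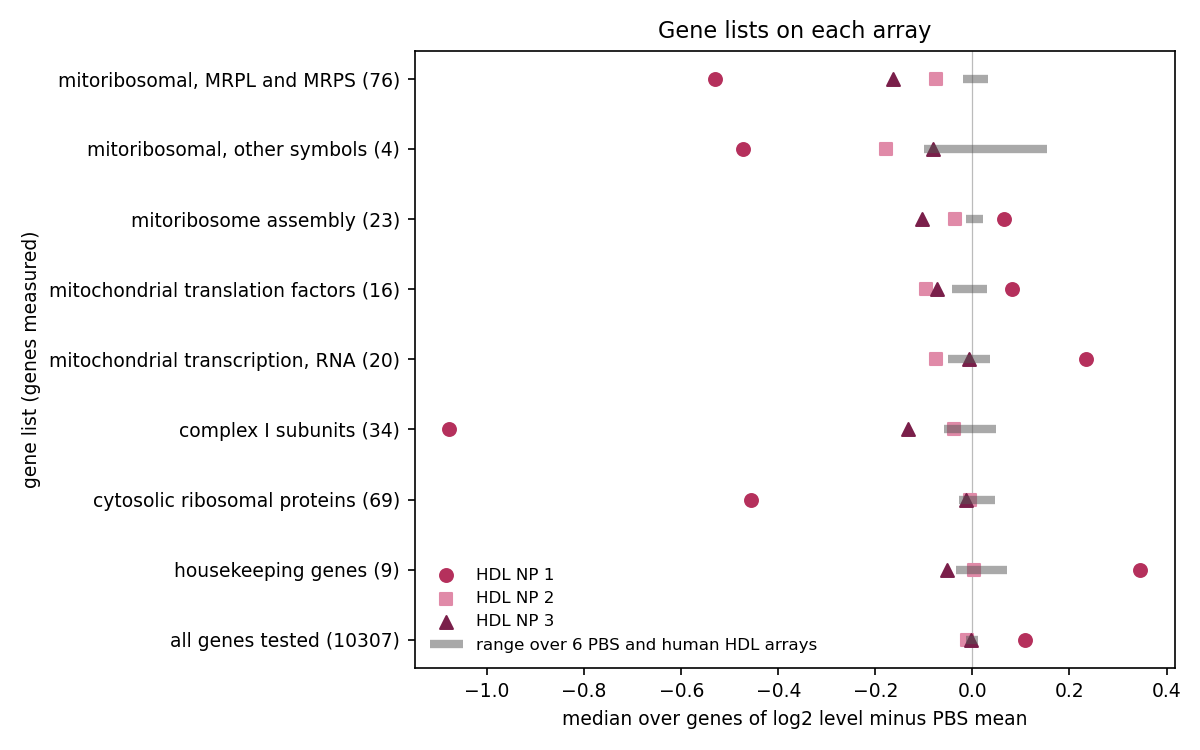
Median over the genes of each list (vertical axis, with the number of genes measured) of the log2 level minus the PBS mean (horizontal axis) on HDL NP 1 (circle), HDL NP 2 (square) and HDL NP 3 (triangle), with a grey bar for the range over the 6 PBS and human HDL arrays. On HDL NP 1 complex I subunits lie at -1.08, the members at -0.53, cytosolic ribosomal proteins at -0.46 and housekeeping genes at 0.35.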

How the data were processed

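RNA of Ramos cells was labelled with Cy3 and hybridized to Illumina HT-12 arrays. The authors deposited the mean bead intensity of 47323 probes on 9 arrays, not background subtracted or normalized between arrays, each with a detection p-value that the authors deposited beside it. Another table that the authors deposited holds a score of unstated unit for every probe and array (column medians 2.97 to 3.44). It may not measure expression and served only as an alternative. The scanner software is not given in the sources used here.

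Expression was computed in R 4.3.3 with limma 3.58.1 by neqc, which took its negative controls from the detection p-values, with normexp, an offset of 16, quantile normalization and log2. Symbols came from the platform annotation, in which 30113 probes had 1 symbol, 8 had several and 17202 had none given, and 30074 of them matched GRCh38.p14 gene IDs, which changed 0 symbols. Probes with a detection p under 0.05 on at least 3 arrays were kept (18185, of which 13619 had 1 symbol). MRPL27, in none of the probes named here, was not analysed. A joint lmFit and eBayes model of the 9 arrays had group as its only term (12.3 total degrees of freedom), with Benjamini-Hochberg adjustment over 10307 genes. With 3 arrays a group, their number limits the precision.

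The members and the other gene lists were chosen with earlier results of these data known. Named are members past the adjusted threshold or the study's rule, the 6 lowest and 6 highest against PBS, the 3 lowest and 3 highest for human HDL, the 3 with the highest and the 3 with the lowest mean level, members with known roles, and the 2 genes with the largest absolute difference in each other mitochondrial or ribosomal list; others named in the text were chosen after their values were seen. The fit was tested on simulated data. Alternatives were the background correction (none, or an offset of 50), median scaling, the other deposited table, and a detection filter that was absent or asked for all 9 arrays. Others were averaging over the probes of a gene, the replicate number as a block, limma's array weights and fits restricted to the pair of groups compared. The last were Student's t-test and the omission of single arrays. The study names that test in its general statistics, while its array methods name no test.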

Additional observations from a re-analysis of the deposited data

How the results depend on the processing

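The members' median for HDL NP against PBS was negative in all 19 alternatives (-0.38 to -0.11), as it was against human HDL (-0.34 to -0.14). Several of these could only repeat the reported median, since they leave the members' group means unchanged. They are the changes of the detection filter, the replicate block, the fits of only 2 groups and the omission of an array from the group not compared. For human HDL against PBS, 0 members were called by either rule in all 20. Counts of single members moved with the setting. For HDL NP against PBS, array weights gave 3 members lower at the adjusted threshold in limma (MRPL24, MRPL32 and MRPL54) and 1 higher (MRPS25), and MRPS25 was also the 1 higher member without background correction (adjusted p = 0.0415) and with an offset of 50 (adjusted p = 0.0400). Estimation of the weights, 0.143 for HDL NP 1, stopped before it converged. By the study's rule the lower members numbered 1 without background correction, with no filter, with array weights or with only 2 groups fitted. They numbered 2 with an offset of 50 or detection on all 9 arrays, 11 with the other deposited table and 0 by Student's t-test. The higher members numbered 0 without background correction, with the offset of 50 or with array weights, and 3 with the other table. For HDL NP against human HDL, array weights gave 9 lower and 1 higher at the adjusted threshold. By the study's rule the lower members were 1 without background correction or with array weights, and 4 with the offset of 50 or no filter. They were 3 with median scaling or only 2 groups and 0 by Student's t-test. The higher ones were 1 with median scaling and 3 with the other table. For human HDL against PBS, median scaling, which moved the median of all genes to -0.07, gave a member median of -0.0719 (small subunit -0.0743, large subunit -0.0689), and the other table -0.0084 (small subunit -0.0256).

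Leaving out each array in turn gave 0 to 22 members lower and 0 to 2 higher by the study's rule for HDL NP against PBS, with 0 lower without HDL NP 1, 22 without HDL NP 2, 15 without HDL NP 3, 1 without PBS 2 or PBS 3 and 2 without any of the remaining 4 arrays, and 0 to 1 lower at the adjusted threshold (MRPL54 at -1.23 without HDL NP 2, adjusted p = 0.0492 in limma). The large-subunit median ran from -0.39 to -0.12. Against human HDL the ranges for lower members were 0 to 24 and 0 to 1, with 0 by the study's rule without HDL NP 1, 24 without HDL NP 2, 20 without HDL NP 3, 2 without human HDL 2 or 3, 4 without human HDL 1 or PBS 2 and 5 without PBS 3, and for human HDL against PBS the large-subunit median ran from 0.0088 to 0.0544.

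With replicate number as a block, 0 members were called lower or higher at the adjusted threshold and 5 lower and 1 higher by the study's rule for HDL NP against PBS, while over all genes 3 lower and 10 higher were called against 4 and 38 without the block. Arrays of the same number deviated together weakly over all genes (correlations of -0.08 to 0.17). Over the members alone the correlations were wider and of both signs, from -0.37 for PBS 2 and HDL NP 2 to 0.41 for PBS 3 and HDL NP 3. The study's methods name no pairing, and the numbers were not taken as pairs.

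Some single members changed sign, none of them called by either rule in the same comparison with all arrays and the reported settings. The values below cover MRPL43 and members named by the rules above, and further members changed sign. For HDL NP against PBS, 67 members were negative as reported, 55 with the other table and 58 without PBS 2. Against human HDL, 66 were negative as reported, 55 with median scaling and 56 with the other table. For human HDL against PBS, 31 were negative as reported and 61 with median scaling. MRPL43 went from -0.36 for HDL NP against PBS to 0.74 with the other table, where it passed the study's rule as higher, and MRPL28, lower by that rule against human HDL, is among those that changed sign against PBS. For HDL NP against PBS with the other table, MRPL19 was -0.20, MRPL28 0.0380, MRPL3 -0.0604, MRPL37 -0.16, MRPL39 -0.0079, MRPS14 0.15, MRPS16 0.26, MRPS18B 0.25, MRPS22 0.0074, MRPS27 -0.38 and MRPS31 -0.28, and for human HDL against PBS MRPL39 was -0.0258, MRPL52 -0.0541, MRPS18B 0.52, MRPS27 -0.45 and MRPS28 0.0035. With median scaling MRPL10 was 0.0460, MRPL3 -0.0647, MRPL37 -0.12 and MRPS16 0.10, with array weights MRPL1 was 0.0297, MRPL10 0.13, MRPL3 -0.13, MRPL37 -0.0589 and MRPS16 0.0154, and with the mean of its probes MRPL10 was 0.0313. Leaving out 1 array, HDL NP against PBS ran from -0.20 to 0.0683 for MRPL1, -0.15 to 0.0360 for MRPL10, -0.0025 to 0.28 for MRPL19, -0.16 to 0.13 for MRPL3, -0.0642 to 0.0685 for MRPL37, -0.0026 to 0.31 for MRPL39, -0.54 to 0.0110 for MRPL51, -0.0606 to 0.0424 for MRPS16, -0.12 to 0.00066 for MRPS22 and -0.39 to 0.00897 for MRPS28, and human HDL against PBS from -0.28 to 0.0159 for MRPL1.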
